A study of Mus musculus with 6 samples.

Results

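Vmn2r19 to Vmn2r27 are 9 neighbouring genes of mouse chromosome 6 that code for vomeronasal type 2 receptors (V2Rs). They were chosen by gene symbol from the table of array values, and only probe sets assigned to a single gene were used. Of the 9 genes, 8 had such a probe set, 1 each, out of 22180 genes measured. Vmn2r21 had none: it appeared only on a probe set assigned jointly to Vmn2r20, Vmn2r21 and Vmn2r22. The study set vomeronasal organs (VNOs) of AP-2e null mice against those of wild-type mice, 3 biological replicates per genotype, each on its own Affymetrix whole-transcript array. All animals were killed at postnatal day 17. The labels give no other allele, strain or sex, and do not say whether organs were pooled or which part of the AP-2e gene is altered.

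The VNO is the chemosensory organ of the nasal septum that detects pheromones and other social signals. Its basal sensory neurons use V2Rs, G protein-coupled receptors with a large extracellular ligand-binding domain, and signal through the G protein subunit Gnao1, whereas apical neurons use V1R receptors and Gnai2. A basal neuron typically makes a single variable V2R together with a V2R of family C, which serves as a co-receptor. Tfap2e encodes AP-2e, an AP-2 family transcription factor found in basal neurons. Of the 9 receptors, Vmn2r26, also called V2r1b, is known in mice as the receptor of neurons that detect peptides of the kind bound by MHC class I proteins.

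The DNA just upstream of these genes was closely alike. RefSeq promoter windows (build GRCm38.p6), each covering 250 bases before and 50 after the annotated gene start, were found for 8 of the 9 genes, all but Vmn2r21. In all 8 windows the annotated start was the ATG of the coding sequence, so the windows show the bases before the start codon and a transcription start further upstream may lie outside them. Over the 28 pairs of windows, identity lay between 77.4% and 96.0%, with a median of 82.8%. The 8 windows had a single longest run of letters in common, 15 bases long, which began 131 to 143 bases before the start. On either strand this run was present in 8 of 32851 RefSeq promoter windows (0.0244%), the 8 of this cluster, and in 0 of the other windows, including every other V2R window. The most alike windows are shown first, those of Vmn2r20 (chr6:123418012-123418311, minus strand) and Vmn2r22 (chr6:123650586-123650885, minus strand), followed by the next most alike, Vmn2r25 (chr6:123853141-123853440, minus strand) and Vmn2r26 (chr6:124024508-124024807, plus strand). Each reads 5′ to 3′ along its gene, and capitals mark the shared run.
Vmn2r20: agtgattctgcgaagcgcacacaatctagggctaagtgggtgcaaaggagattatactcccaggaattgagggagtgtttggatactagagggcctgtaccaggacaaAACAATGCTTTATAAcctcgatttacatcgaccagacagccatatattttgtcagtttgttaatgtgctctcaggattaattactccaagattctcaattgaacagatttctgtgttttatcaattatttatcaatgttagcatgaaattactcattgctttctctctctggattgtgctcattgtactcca
Vmn2r22: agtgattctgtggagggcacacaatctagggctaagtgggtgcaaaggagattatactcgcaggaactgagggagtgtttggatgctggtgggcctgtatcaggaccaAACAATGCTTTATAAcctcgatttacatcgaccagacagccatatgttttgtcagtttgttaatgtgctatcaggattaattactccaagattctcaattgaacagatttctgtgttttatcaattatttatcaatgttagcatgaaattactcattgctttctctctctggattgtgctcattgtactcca
Vmn2r25: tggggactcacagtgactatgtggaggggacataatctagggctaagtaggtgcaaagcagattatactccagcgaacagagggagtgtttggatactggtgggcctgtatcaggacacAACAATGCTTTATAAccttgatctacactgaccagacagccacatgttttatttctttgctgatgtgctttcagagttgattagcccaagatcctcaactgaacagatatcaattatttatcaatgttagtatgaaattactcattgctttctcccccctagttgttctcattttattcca
Vmn2r26: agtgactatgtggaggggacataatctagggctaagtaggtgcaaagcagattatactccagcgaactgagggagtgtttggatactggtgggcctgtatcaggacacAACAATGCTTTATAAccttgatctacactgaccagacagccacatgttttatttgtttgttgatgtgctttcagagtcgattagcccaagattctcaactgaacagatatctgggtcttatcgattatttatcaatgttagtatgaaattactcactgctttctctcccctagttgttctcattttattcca
The windows of Vmn2r20 and Vmn2r22 were 96.0% identical, with 12 mismatches over 300 aligned positions and no gap. Those of Vmn2r25 and Vmn2r26 were 94.0% identical, with 7 mismatches and 11 gap positions.

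Because AP-2 proteins bind a pair of GCC and GGC half-sites, the windows were searched on both strands for GCCNNNGGC and for the same half-sites with 4 bases between them. Neither was present in any of the 8 windows. GCCNNNGGC was present in 16.6% of all 32851 windows and in 9 V2R windows (7.69% of them), and the longer form in 14.8% of all windows and in 3 V2R windows (2.56%). The search says only that these letters are not in these windows. The GC content of the 8 windows lay between 36.7% and 41.3%.

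Values are log2 signals, so a difference of 1 is a 2-fold change, and each difference is the AP-2e null mean less the wild-type mean, with the standard error (SE) of a limma fit over 22180 genes. A gene passed at an adjusted p under 0.05 over all genes. Array medians lay between 4.997 and 5.079, the lower quartile over all arrays was 3.62, and arrays correlated with r between 0.971 and 0.985 across probe sets. AP-2e null replicate 2 stood apart in a list of 5 cartilage genes, at a mean of 7.90 against 5.43 to 5.82 on the other 5 arrays. Wild-type replicate 3 was lowest in a neutrophil list, at 7.06 against 7.47 to 8.24. Lower AP-2e null means were found for 0 of 5 cartilage, 0 of 5 neutrophil and 0 of 5 endothelium genes. They were found for 4 of 4 measured multiciliated and 4 of 5 skeletal muscle genes, against 50.2% of all genes. In these lists 0 genes reached an unadjusted p under 0.05 in limma. The part of these lists in other differences was not tested. Tfap2e had 5.97, 6.09 and 6.04 in AP-2e null VNOs, against 6.46, 6.76 and 6.92 in wild-type VNOs, and its difference of -0.68 (SE 0.13) had an adjusted p of 0.431. The neuron markers of the VNO were present on all arrays, with Omp, the marker of mature sensory neurons, at 9.46 to 9.87 in AP-2e null and 9.93 to 10.48 in wild-type VNOs. In whole-organ RNA, fewer cells of a type and less RNA per cell cannot be told apart. Closely related receptor genes can also share probe sequence, so values of single receptors are uncertain.

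Among the 8 measured members, Vmn2r20 alone passed the threshold, with a fall of about 5-fold. Vmn2r24, Vmn2r23 and Vmn2r25 had AP-2e null values that all lay below the wild-type ones but did not pass, Vmn2r27 overlapped between genotypes, and Vmn2r22, Vmn2r26 and Vmn2r19 had slightly higher means in AP-2e null VNOs. In all, 1 of 8 measured members fell and 0 rose, where 0.216% of all genes fell and 0.00902% rose. Lower means were found for 5 of the 8, against 50.2% of all genes. The median difference of the 8 members was -0.64, against -1.94 for the other 101 measured V2R genes and -0.00052 for all genes. Without AP-2e null replicate 3 the members' median was -0.35.

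Vmn2r20 had 5.04, 5.12 and 5.02 in AP-2e null VNOs, against 7.35, 7.34 and 7.53 in wild-type VNOs. The genotypes were far apart and the replicates of each lay within 0.2 of each other. The means were 5.06 ± 0.05 in AP-2e null and 7.41 ± 0.11 in wild-type VNOs (SD, n = 3 each), a difference of -2.35 (SE 0.07, limma adjusted p = 0.000896) or 5.10-fold lower. The 95% interval of the difference ran from -2.54 to -2.17. Vmn2r20 passed in all 17 alternatives tried, including each array left out in turn, with differences between -2.39 and -2.29.

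Vmn2r22 has the promoter window most like that of Vmn2r20, and its signal was not lower. It had 6.81, 6.63 and 6.43 in AP-2e null VNOs, against 6.78, 6.15 and 6.24 in wild-type VNOs. The genotypes overlapped, since wild-type replicate 1 lay within the AP-2e null range. The difference was 0.24 (SE 0.20, limma adjusted p = 0.873), with a 95% interval from -0.25 to 0.72 that excludes a fall of the size seen for Vmn2r20. With single arrays left out it ran from 0.11 (wild-type replicate 2 out) to 0.43 (wild-type replicate 1 out, adjusted p = 0.872), and it passed in 0 of 17 alternatives.

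The probe set assigned to Vmn2r20, Vmn2r21 and Vmn2r22 together had 7.74, 7.63 and 7.69 in AP-2e null VNOs, against 9.21, 8.87 and 9.42 in wild-type VNOs. It is the only probe set here on which Vmn2r21 is represented, and every AP-2e null array lay below every wild-type array. Tested with every other probe set by itself, its difference was -1.48 (SE 0.15, limma adjusted p = 0.0677 over 41345 probe sets) or 2.80-fold lower, so it did not pass, in a fit in which 0.128% of probe sets fell. Which of the 3 genes the signal came from cannot be told apart with this probe set.

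**Figure D1:**
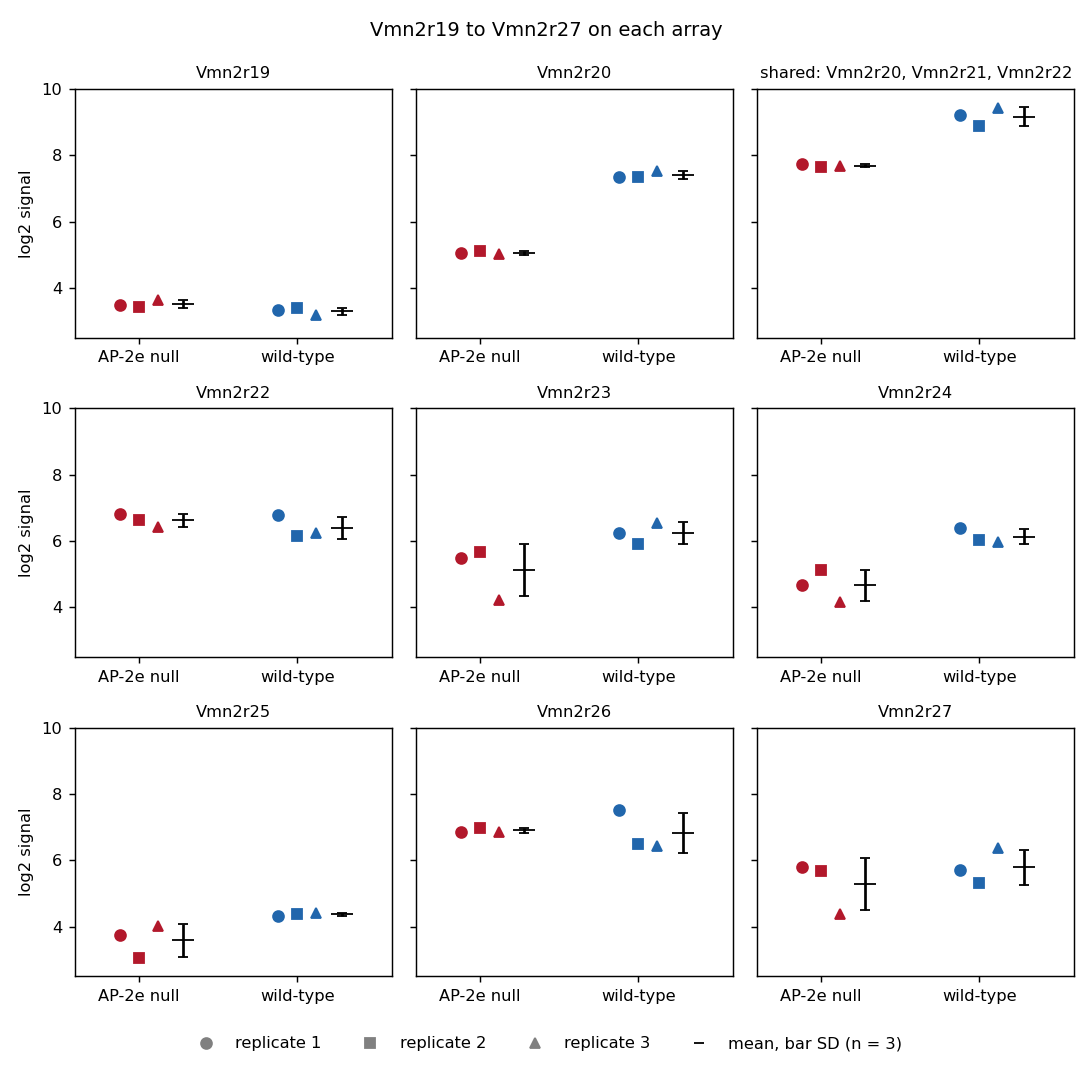
Log2 signal (vertical axis) of the 8 measured members and of the probe set shared by Vmn2r20, Vmn2r21 and Vmn2r22 on each of 6 arrays, AP-2e null at left and wild-type at right, with marker shape for the replicate number and mean ± SD of 3 arrays in black. Vmn2r20 lies at 5.02 to 5.12 in AP-2e null and 7.34 to 7.53 in wild-type VNOs, while Vmn2r22 and Vmn2r26 overlap between genotypes.

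Vmn2r24 had 4.68, 5.12 and 4.16 in AP-2e null VNOs, against 6.39, 6.02 and 5.98 in wild-type VNOs. All AP-2e null values were below all wild-type values. The difference was -1.47 (SE 0.26, 2.77-fold lower, limma unadjusted p = 0.0017, adjusted p = 0.386), with a 95% interval from -2.12 to -0.82, and it passed in 0 of 17 alternatives.

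Vmn2r23 had 5.50, 5.68 and 4.23 in AP-2e null VNOs, against 6.25, 5.91 and 6.56 in wild-type VNOs. AP-2e null replicate 3 was well below the other arrays, and the remaining AP-2e null values were just below the wild-type range. The difference of -1.10 (SE 0.42, limma unadjusted p = 0.040, adjusted p = 0.873) was -0.65 without that array. Vmn2r25 had 3.73, 3.04 and 4.01 in AP-2e null VNOs, against 4.31, 4.38 and 4.40 in wild-type VNOs. Its wild-type values lay close together, its AP-2e null values were lower and spread more widely, and the AP-2e null mean of 3.59 was under the lower quartile of the arrays. The difference was -0.77 (SE 0.25, limma unadjusted p = 0.022, adjusted p = 0.873). Without AP-2e null replicate 2 it was smaller but more even, at -0.49 (SE 0.10, limma unadjusted p = 0.0062, adjusted p = 0.942). That array had the high cartilage signal, whose part in the difference was not tested.

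Vmn2r27, at the other end of the cluster from Vmn2r19, had 5.81, 5.68 and 4.37 in AP-2e null VNOs, against 5.70, 5.30 and 6.36 in wild-type VNOs. AP-2e null replicates 1 and 2 lay inside the wild-type range and only replicate 3 was below it. The difference of -0.50 (SE 0.47, limma adjusted p = 0.873) was -0.04 without AP-2e null replicate 3. That array thus had the lowest signal for Vmn2r23, Vmn2r24 and Vmn2r27. The mean of the other 101 V2R genes was 4.39 there, between the 4.52 and 4.37 of AP-2e null replicates 1 and 2.

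Vmn2r26, the peptide-associated receptor, had 6.87, 6.98 and 6.85 in AP-2e null VNOs, against 7.51, 6.50 and 6.45 in wild-type VNOs. The AP-2e null values lay together in the middle of the wild-type range, where replicate 1 was about 1 log2 unit above the rest. The difference was 0.08 (SE 0.30, limma adjusted p = 0.964), with a 95% interval from -0.65 to 0.82 and a change of sign in 3 of 17 alternatives. It was -0.12 with array weights. With wild-type replicate 1, 2 or 3 left out it was 0.43, -0.07 or -0.10.

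Vmn2r19 had 3.48, 3.41 and 3.63 in AP-2e null VNOs, against 3.32, 3.38 and 3.17 in wild-type VNOs. Every AP-2e null value was above every wild-type value, but by little, and both means, 3.51 and 3.29, were under the lower quartile of the arrays. The difference was 0.22 (SE 0.09, limma adjusted p = 0.873), with a 95% interval from -0.00 to 0.44. Groups without overlap were found for 4 members on the lower side and 1 on the higher side, where 3.64% and 3.42% of all genes were apart in these directions. An unadjusted p under 0.05 was reached by 4 members on the lower side and 0 on the higher side, against 2.49% and 1.9% of all genes.

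The members with the most alike promoter windows were not those with the most alike differences, as the plot of identity against response shows. For Vmn2r20 minus Vmn2r22, the within-array gap was -1.57 ± 0.19 in AP-2e null and 1.02 ± 0.39 in wild-type VNOs (SD, n = 3 each). The gaps of the genotypes did not overlap, and the change of -2.59 gave 0.1 in an exact 2-sided permutation test, which with 3 arrays a genotype can go no lower. For Vmn2r25 minus Vmn2r26, which are next to each other on the chromosome, the gap changed by -0.85 (exact permutation p = 0.3). For Vmn2r24 minus Vmn2r26, the third most alike at 89.7% identity, it changed by -1.55 (exact permutation p = 0.1). Adjusted over these 3 pairs, taken by identity alone, the p-values were 0.15, 0.3 and 0.15. Over the 28 pairs the gaps between differences ranged from 0.02 to 2.59 in size. Vmn2r20 also had wide gaps with less alike windows, 2.57 with Vmn2r19 (81.4% identity) and 2.43 with Vmn2r26 (84.4%). The 28 pairs are drawn from 8 genes and are not independent, and Vmn2r26 is in both the Vmn2r25 and the Vmn2r24 pair above. The 15-base run was picked as common to all 8 windows, so it could not differ between Vmn2r20, which fell, and the members that did not pass. The searched AP-2 letters, present in 7.69% and 2.56% of V2R windows, were absent from all 8. Neither feature can therefore tell which members fell.

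**Figure D2:**
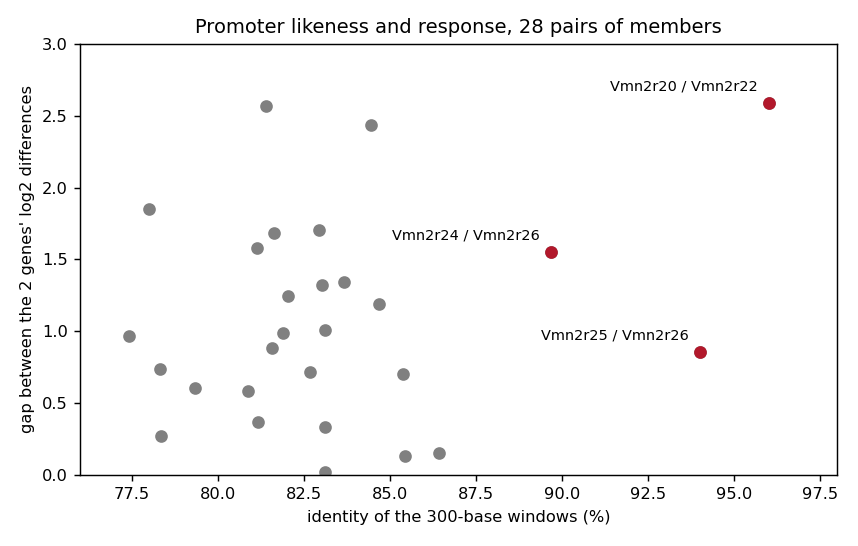
Identity of the 300-base promoter windows in percent (horizontal axis) against the size of the gap between the genes' log2 differences (vertical axis) for the 28 pairs of members, with the 3 most alike pairs in red. The pair with the highest identity, Vmn2r20 and Vmn2r22 at 96.0%, also has the widest gap, 2.59. Vmn2r20 and Vmn2r19, at 81.4%, have a gap of 2.57, and pairs that share a gene are not independent.

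Position on the chromosome was next set beside the response. In the RefSeq gene table the 9 members follow each other in the order of their numbers, with 4 V2R pseudogenes among them and 0 other measured genes. On the side of Vmn2r19 lie genes of C-type lectins of immune cells, and 6 measured ones were taken: Clec4b1, Clec4a2, Clec4b2, Clec4n, Clec4d and Clec4e. On the side of Vmn2r27, the 6 nearest measured genes were Cd163, a scavenger receptor of macrophages, 1700013D24Rik, the peroxisomal import receptor Pex5, the synaptic adhesion gene Clstn3, and the complement genes C1rl and C1ra. Of these 12 flanking genes, 0 passed in limma and 0 reached an unadjusted p under 0.05. Over all genes, 0.216% fell and 0.00902% rose past the threshold, and 2.49% and 1.9% reached that p on the lower and higher side. For 12 genes, 0 is near these shares. Clec4b1 and 1700013D24Rik lay under the arrays' lower quartile in both genotypes. Their means were lower for 3, higher for 8 and the same for Cd163, whose value was constant over all arrays. The differences lay between -0.18 for Clec4n and 0.32 for Clec4a2, with a median of 0.09.

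**Figure D3:**
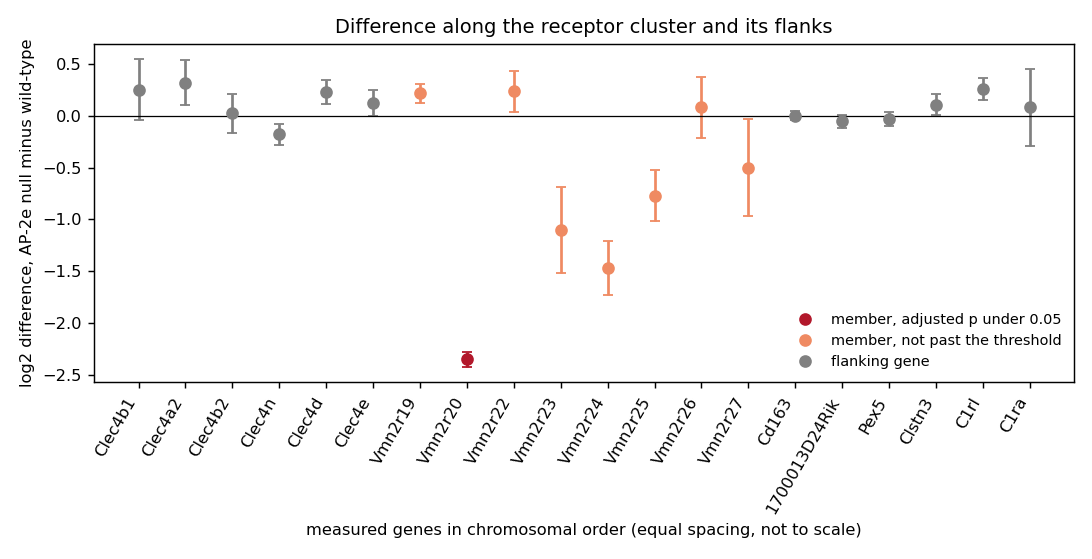
Log2 difference, AP-2e null minus wild-type (vertical axis, bars are SE), for the 8 measured members in red or orange and 6 flanking genes on each side in grey, in chromosomal order with equal spacing. Vmn2r20 stands at -2.35 between Vmn2r19 at 0.22 and Vmn2r22 at 0.24, and the flanking genes stay between -0.18 and 0.32.

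Within the V2R family, the members' median difference lay nearer to 0 than that of most ranges of gene numbers. Of the 8 members, 1 fell (12.5%) and 5 had a lower mean, against 41 (40.6%) and 97 of the other 101 V2R genes. The differences of the members ran from -2.35 to 0.24, and those of the other V2R genes from -5.77 to 0.34. The 10 genes Vmn2r8 to Vmn2r17 had 10 lower means, 3 falls past the threshold and a median of -2.10. The 7 genes Vmn2r111 to Vmn2r117 had 4 lower means, 0 past the threshold in limma (1 lower and 1 higher at an unadjusted p under 0.05) and a median of -0.21. These counts and medians were not tested against each other. On wild-type arrays the members' mean was 5.95, 5.62 and 5.84, below the 6.59, 6.45 and 6.86 of the other V2R genes. On AP-2e null arrays it was 5.24, 5.21 and 4.84, above their 4.52, 4.37 and 4.39. The part of the lower wild-type signal in the smaller differences was not tested.

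**Figure D4:**
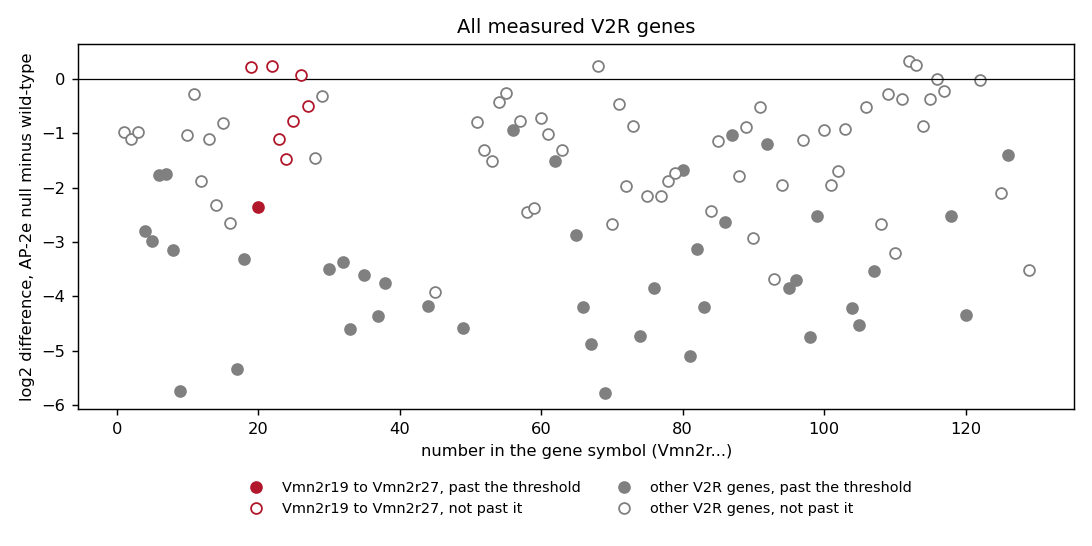
Log2 difference, AP-2e null minus wild-type (vertical axis), of the 8 members and the other 101 measured V2R genes by the number in their symbol (horizontal axis), members in red, the others in grey, and filled points past the threshold. The 8 members lie between -2.35 and 0.24 and the other V2R genes between -5.77 and 0.34.

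Genes that basal neurons use together with V2Rs were measured on the same arrays. Over all genes, 50.2% had a lower mean, and 0.216% fell and 0.00902% rose past the threshold. All 7 family C co-receptors had lower means, and 4 fell past the threshold: Vmn2r5 by 2.97, Vmn2r7 by 1.75, Vmn2r6 by 1.76 and Vmn2r4 by 2.80 on the log2 scale (limma adjusted p = 0.00111, 0.00465, 0.00996 and 0.0221). Of 12 H2-M genes, nonclassical MHC genes several of which are made in basal neurons, 11 had lower means and H2-M1 fell by 2.82 (limma adjusted p = 0.0271). The next by p, H2-M10.2 at -0.76 and H2-M10.6 at -0.80, did not pass. At a limma unadjusted p under 0.05, 9 of the 12 were lower and 0 higher, against 2.49% and 1.9% of all genes.

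Of 5 other basal neuron genes, 4 had lower means and 0 passed in limma (4 at an unadjusted p under 0.05), with Calr4, a calreticulin-like chaperone, at -1.10, Gnao1 at -0.68 and the axon guidance receptor Robo2 at -0.49. The mean of this list lay at 8.95 to 9.05 on AP-2e null arrays and at 9.47 to 9.70 on wild-type arrays, Gng8 differed by 0.06 with overlapping genotypes, and the part of this list in the fall of Vmn2r20 was not tested. Of 7 apical genes, 3 had lower means and 0 passed in limma (1 lower and 2 higher at an unadjusted p under 0.05), with Gng2 at 0.36, Meis2 at 0.26 and Kirrel2 at -0.35. Of 8 genes shared by both neuron classes, 5 had lower means and 0 passed in limma (1 lower and 1 higher at an unadjusted p under 0.05), with the receptor-transporting protein Rtp1 at 0.44, the chloride channel Ano2 at -0.40 and Omp at -0.41. Over all genes, 2.49% and 1.9% reached that p on the lower and higher side, and 50.2% had a lower mean.

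The mean of the 8 members was 5.24, 5.21 and 4.84 on AP-2e null arrays, against 5.95, 5.62 and 5.84 on wild-type arrays. Genes outside the cluster were ranked by likeness to this mean, leaving out predicted genes, clone names, small RNA genes and genes named as pseudogenes. The closest of the rest were Jag2, a Notch ligand, with r = 0.995, Vmn2r93 with r = 0.990 and Rnf128, a ubiquitin ligase, with r = 0.985 (Pearson, 6 arrays). The arrays share the genotype contrast. These r are the highest of many, so values this high arise in part from the choice. The differences of these genes were -0.17, -3.68 and -0.29, and none of these 3 passed (limma adjusted p = 0.873, 0.141 and 0.873).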

How the data were processed

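RNA of 6 VNO samples was measured on Affymetrix whole-transcript arrays, 1 array a sample. The deposited table holds log2 signals per probe set. The authors used RMA (background correction, quantile normalization and probe summary) and Transcriptome Analysis Console, per the submitters' processing notes, and no version or setting is stated there. Of 41345 probe sets, the platform annotation named a single gene for 23521, several for 1814 and none for 16010, and RefSeq Entrez identifiers (GRCm38.p6) matched 23328 and changed 0 symbols. The probe set with the highest mean stood for a gene. No filter was set, and 77 genes, none of them members, had constant values.

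Genotypes came from sample titles. The comparison used lmFit and eBayes of limma 3.58.1 (R 4.3.3, 2-sided, Benjamini-Hochberg over 22180 genes). The p-values rest on the spread between the 3 samples per genotype, drawn by eBayes toward a variance estimated over all genes. The number of arrays limits the precision. The fit was tested on simulated data with independent normal noise at the fit's own variances. Such data meet the assumptions of the fit, so the test does not check them on these arrays. Windows were aligned with Biopython 1.88 (global, free end gaps), and protein sequences were not used here. The named genes are the members, Tfap2e, 6 flanking genes a side, up to 3 genes by p of each pathway list (4 for family C, all that passed), and the 3 genes most like the members' mean. Predicted genes, clone names, small RNA genes and genes named as pseudogenes were left out of that last choice. Gng8 was named outside this rule, as the gene of the basal list without a lower mean. The members and lists were chosen with earlier results of these data known. Samples were not treated as paired by replicate number in the main fit, since the labels name no pairing. Correlations of deviations between samples of the same number were 0.07, 0.06 and -0.01, which cannot exclude a pairing. Alternatives were other moderation, other probe set rules, a filter on the dimmest 30% of genes, 3 rescalings, array weights, an unmoderated test, the replicate block and leaving out each array. Testing each probe set by itself was added after seeing the data.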

Additional observations from a re-analysis of the deposited data

How the results depend on the processing

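The fall of Vmn2r20 passed in all 17 alternatives, with differences from -2.39 to -2.29 and adjusted p from 0.000422 to 0.0335, and in each alternative 1 member fell and 0 rose. The members with a lower mean numbered 4 to 6 and their median difference ran from -0.80 to -0.35. The filter on dim genes removed Vmn2r19 and Vmn2r25, and with 1 single-gene probe set per member the probe set rules left the members' values as they were. Vmn2r26 changed sign to -0.12 with array weights, and with single arrays left out it ran from -0.10 to 0.43. It was lower without wild-type replicate 2 (-0.07) or 3 (-0.10). Without wild-type replicate 1 it was 0.43 (SE 0.07, limma unadjusted p = 0.0023, adjusted p = 0.491). It passed in 0 of 17 alternatives. The other 6 members kept their direction and stayed short of the threshold in every alternative that held them. With single arrays left out, Vmn2r22 ran from 0.11 (without wild-type replicate 2) to 0.43 (without wild-type replicate 1). Likewise, Vmn2r27 ran from -0.77 to -0.04 and Vmn2r23 from -1.37 to -0.65, nearest to 0 without AP-2e null replicate 3 for both.

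Counts over all genes moved more. The 48 genes that fell became 4 in the unmoderated test, 22 with the replicate block and 17 to 32 with an array left out. The 2 genes that rose became 4 with median centring, repeated quantile normalization or cyclic loess, 1 with averaged or lowest-mean probe sets or array weights, 0 in the unmoderated test, with the replicate block or with each probe set by itself, and 0 to 1 with an array left out. With the replicate block Vmn2r20 differed by -2.35 (limma adjusted p = 0.0266). Of 6 arrays, 2 correlated best with their own number in the other genotype. With so few arrays this cannot tell whether samples of the same number were paired. The cause of these moves was not tested. Signal limits Vmn2r19 and Vmn2r25, whose means in AP-2e null VNOs were under the arrays' lower quartile.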
